A study of Mus musculus with 120 samples.

Results

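The genes described here are 10 genes of glucose production and insulin response in the mouse liver: G6pc, Pck1, Fbp1, Pcx, Slc37a4, Ppargc1a, Foxo1, Irs1, Irs2 and Igfbp1. They form a set by name and known role, chosen with earlier results of these data in view, and each had 1 row among the 24883 rows of the deposited table. Liver RNA was sequenced from mice of 10 Collaborative Cross (CC) strains, inbred mouse lines whose genomes are mosaics of a shared set of founder strains. The strains, by the numbers in their names, were CC060, CC043, CC042, CC041, CC040, CC032, CC019, CC013, CC011 and CC003. In each strain, males and females were fed either an obesogenic HF/HS diet or a matched control diet with little fat and less sucrose, for 12 weeks. Milkfat supplied 42% of the energy in the HF/HS diet, cholesterol made up 0.2% of it, and sucrose over 30%. The age of the mice and whether they were fasted at collection are not given in the sources used here. Each of the 40 groups of strain, sex and diet had 3 libraries, 120 in all. The columns of CC040 female HF/HS 1 and CC040 female control 3 held identical values and were left out, which left 59 libraries on each diet. Whether the 3 libraries in a group stem from different mice is not stated, so the p-values measure the spread between these libraries, which may be technical.

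Gluconeogenesis builds glucose from lactate, amino acids and glycerol, and in the liver it supplies blood glucose during fasting. Glucagon and glucocorticoids raise the transcription of its rate-setting enzymes, partly through CREB and the coactivator PGC-1alpha, whereas insulin lowers it by sending the transcription factor FOXO1 out of the nucleus. Insulin acts through its receptor and the docking proteins IRS1 and IRS2, and Irs2 and Igfbp1 are themselves FOXO1 targets that insulin switches off.

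The promoters of Igfbp1, G6pc and Pck1 are shown because these are the textbook targets of that switch. The stretches are the 250 bases before the RefSeq start on GRCm38.p6, and all 3 genes are on the plus strand. They lie at chr11:7197537-7197786, chr11:101367466-101367715 and chr2:173152823-173153072.
Igfbp1: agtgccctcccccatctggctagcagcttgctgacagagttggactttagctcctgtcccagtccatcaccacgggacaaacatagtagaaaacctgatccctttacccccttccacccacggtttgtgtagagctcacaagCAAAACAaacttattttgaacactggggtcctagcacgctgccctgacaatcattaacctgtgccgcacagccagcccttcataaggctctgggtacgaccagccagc
G6pc: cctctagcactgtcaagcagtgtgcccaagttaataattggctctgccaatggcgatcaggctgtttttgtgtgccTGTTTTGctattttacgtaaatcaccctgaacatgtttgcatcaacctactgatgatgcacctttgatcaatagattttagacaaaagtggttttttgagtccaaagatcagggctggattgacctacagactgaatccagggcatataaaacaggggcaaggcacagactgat
Pck1: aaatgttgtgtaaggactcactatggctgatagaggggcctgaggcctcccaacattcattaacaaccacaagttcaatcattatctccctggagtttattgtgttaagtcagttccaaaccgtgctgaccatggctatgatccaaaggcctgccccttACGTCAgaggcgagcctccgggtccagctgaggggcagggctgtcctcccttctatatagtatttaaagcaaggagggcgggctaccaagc

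The capitals mark exact matches, on either strand, to 3 motifs: CAAAACA, the core of the insulin response element, TGTTTAC, a forkhead core, and ACGTCA, the core of the cAMP response element. No match to one motif overlapped a match to another in these windows. The insulin response core stood 108 bases before the Igfbp1 start and, as TGTTTTG, 174 bases before the G6pc start, and the cAMP core stood 91 bases before the Pck1 start. Of 32851 RefSeq promoter windows of this length, 5.56% held the insulin response core, 3.17% the forkhead core and 6.47% the cAMP core. Among the other members, the insulin response core was found in the windows of Irs1 and Irs2 and the cAMP core in those of Slc37a4 and Ppargc1a. A match is a description of letters and not a bound site.

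All 10 genes were above 0 in every library used, and all 10 passed the filter on low values. The values are FPKM that the authors rescaled to a common 75th percentile, so levels are per transcript length and may be compared between genes. Read counts are not part of the table and the depth of each library is unknown. The step between the lowest values reflects both the depth and the rescaling factor, which could not be told apart. Read as depth alone, it puts CC003 libraries at 0.0658 to 0.117 of CC011 female control 1. The libraries of the 8 strains other than CC003 and CC060 lie at 0.705 to 1.46 and those of CC060 at 0.713 to 1.25. The values of CC003 libraries summed to 3192044 to 4629868, against 943592 to 1365518 in the 8 strains and 926928 to 1986957 in CC060. CC003 also had more rows at 0, 41.5 to 45.1% of the table, against 30.6 to 35.5% in the 8 strains and 34.1 to 37.9% in CC060. The protocols name an rRNA depletion kit and an mRNA kit, and which kit made which library is not given. The libraries CC060 male control 3, CC060 female control 1 and CC011 female HF/HS 1 stood far from the other libraries of their groups, with 43.9% of all genes over 2 pooled SD from the group mean in CC060 male control 3, 24.1% in CC060 female control 1 and 21.9% in CC011 female HF/HS 1, where the median library had 0.656%. The other male controls of CC060 were close behind, with 20.7% in CC060 male control 1 and 16.3% in CC060 male control 2. No clear gap therefore sets these 3 libraries off from the rest. The members were among the genes displaced in the 3. CC060 female control 1 read 3998 for Igfbp1, where the other 2 libraries of its group read 40.4 and 143, and 19.8 for Ppargc1a, where they read 2.56 and 3.86. CC011 female HF/HS 1 read 19.2 for G6pc, where the other 2 libraries of its group read 373 and 416. Where a diet, sex or pair call of a member was lost without these 3 libraries, both values are given. The marker list does not hold Alb, the albumin gene, whose value is 0 in 102 libraries. The 7 hepatocyte markers used were present, and 6 of 7 fell on the HF/HS diet, with a summed level of 34190 to 74898 (median 54829) on the HF/HS diet and 41884 to 197705 (median 59379) on the control diet. The 6 macrophage markers summed to 58.3 to 901 (median 296) on the HF/HS diet and 115 to 785 (median 259) on the control diet, and 3 of 6 rose. No marker of either list was at 0 in most libraries, and their part in the members' changes was not tested. In bulk tissue, fewer cells of a type and less RNA per cell cannot be told apart.

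**Figure D1:**
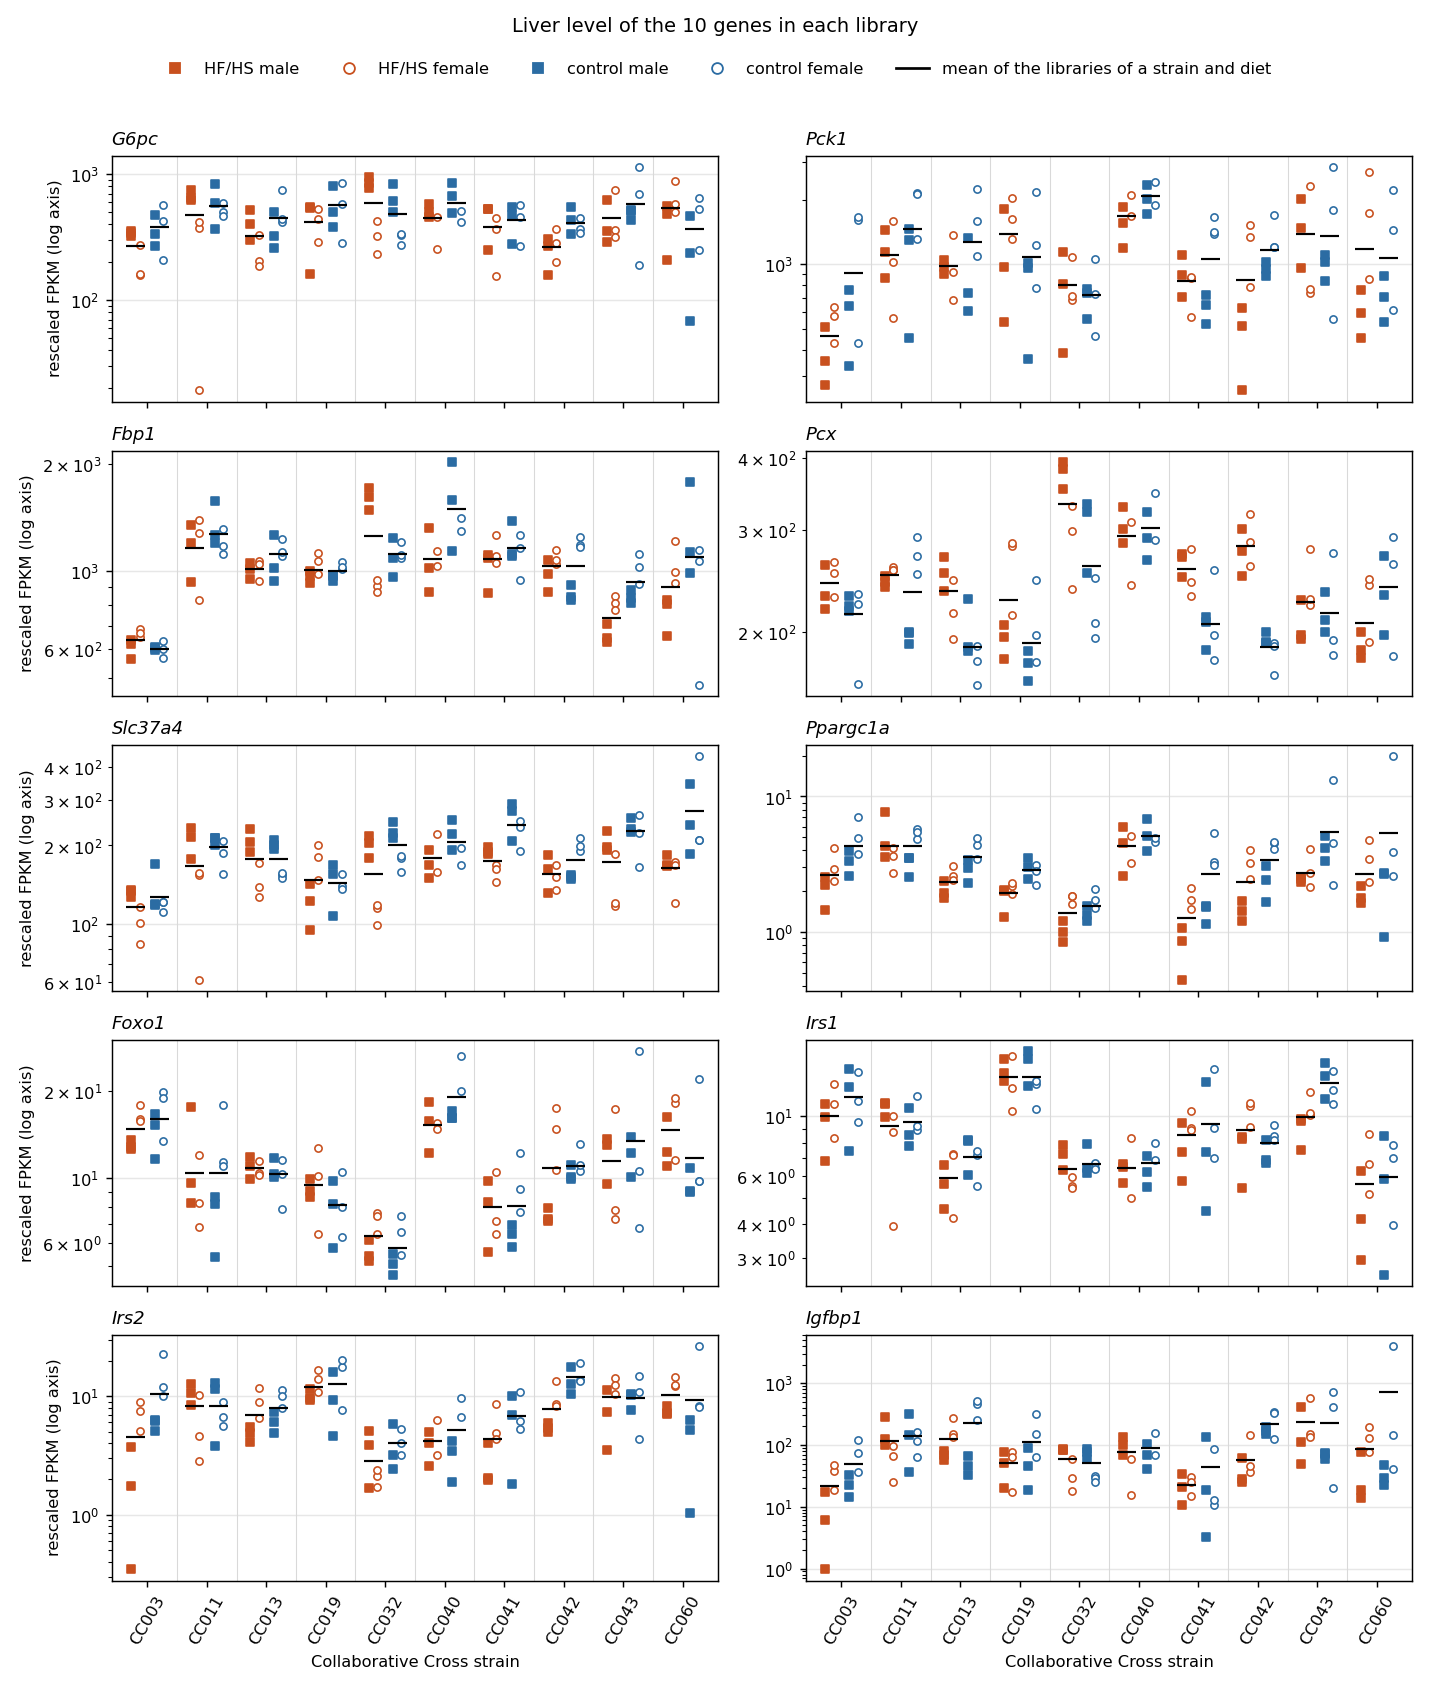
Level of each gene in every library, as rescaled FPKM on a log axis, by strain, with HF/HS libraries (orange) left of control libraries (blue), males as filled squares and females as open circles, and a line at the mean of a strain and diet. Igfbp1 spans from 0.972 to 3998 and Pcx from 161 to 395.

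On the HF/HS diet 5 of the 10 transcripts fell by modest amounts and that of pyruvate carboxylase rose. Over all strains and sexes, 6 of the 10 genes passed the test, where 32.6% of the 12203 genes tested did so: Pcx rose (17.2% of all genes did), and Slc37a4, Ppargc1a, Irs2, Fbp1 and Igfbp1 fell (15.4% of all genes did). The median log2 difference of the 10 genes was -0.23, and that of all genes tested was 0.00. Changes are HF/HS minus control on log2(value + 1), each of the 20 strain-sex groups having equal weight, and the adjusted p-values are from limma over all genes tested. When the 10 strain differences served as the replicates, Slc37a4 and Ppargc1a alone of the 10 genes still passed.

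**Figure D2:**
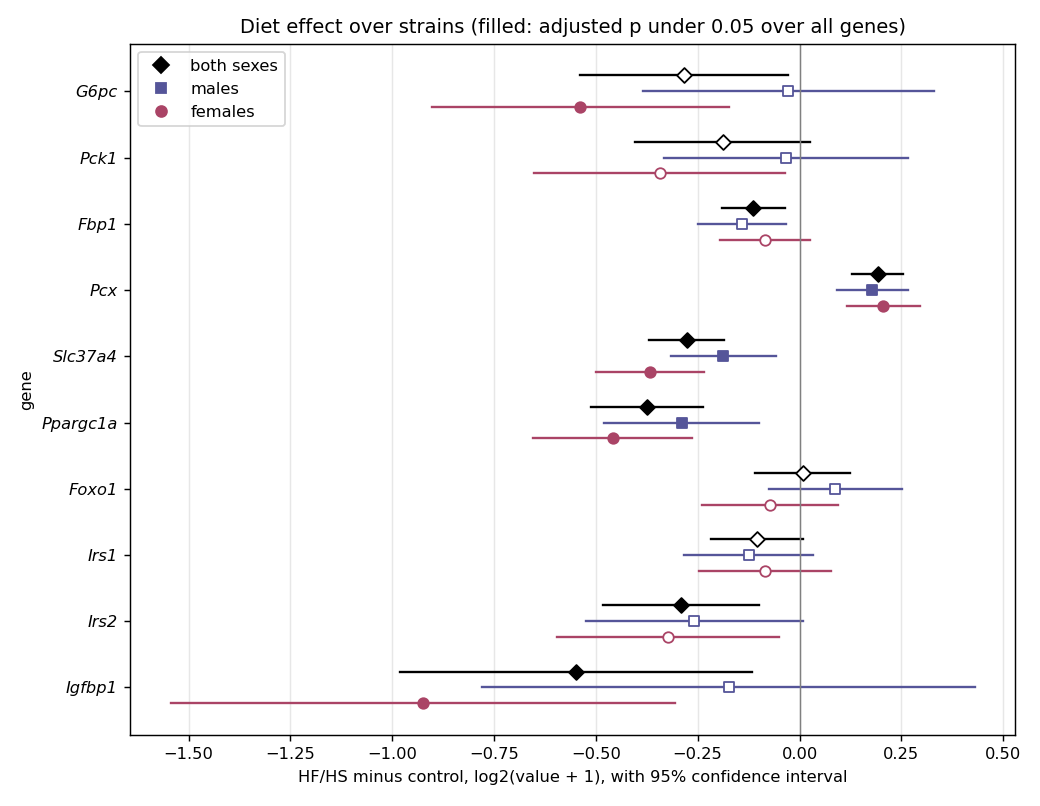
HF/HS minus control on the log2(value + 1) scale for each gene over both sexes, in males and in females, with the 95% confidence interval; filled symbols passed an adjusted p of 0.05. Pcx lies to the right of 0 in all 3 comparisons, and Slc37a4 and Ppargc1a lie to the left in all 3.

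Pcx (chr19:4510472-4621752, mm10) encodes pyruvate carboxylase, the mitochondrial enzyme that makes oxaloacetate from pyruvate as the first step of gluconeogenesis. The coordinates here and for the other members are the whole gene loci of the deposited table. Its level was 179 to 395 (median 250.04) on the HF/HS diet and 161 to 348 (median 207) on the control diet. The ranges overlapped widely, and the shift was in their middle. Pcx rose by 0.19 ± 0.03 (SE; adjusted p = 7.35e-07), with a positive difference in 15 of the 20 strain-sex groups. It rose in males, by 0.18 ± 0.04 (adjusted p = 0.00132), and in females, by 0.21 ± 0.04 (adjusted p = 0.000514). With strains as replicates its adjusted p over both sexes was 0.0623, and over 39 alternatives it ranged from 8.88e-10 to that value.

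Fbp1 (chr13:62864753-62888282) encodes fructose-1,6-bisphosphatase, the enzyme that bypasses the phosphofructokinase step. It measured 564 to 1709.9 (median 976) on the HF/HS diet and 476 to 2026 (median 1102) on the control diet. The HF/HS libraries lay inside the control range, whose lower end, 476, was CC060 female control 1, a library that stood apart. Fbp1 fell by 0.11 ± 0.04 (adjusted p = 0.0174), with a negative difference in 12 of 20 groups. The call was lost in 8 of 39 alternatives, among them quantile normalization and the omission of strain CC040 or CC043.

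G6pc (chr11:101367730-101377903) encodes the catalytic subunit of glucose-6-phosphatase, which releases free glucose from the cell. Its level was 19.2 to 945 (median 364) on the HF/HS diet and 68.7 to 1139 (median 467) on the control diet. The ranges overlapped almost fully. The difference over both sexes was -0.28 ± 0.13 (adjusted p = 0.0815) and did not pass. In females the level was 19.2 to 875 (median 330.2) on the HF/HS diet and 189.8 to 1139 (median 449) on the control diet. G6pc fell by 0.54 ± 0.18 in females (adjusted p = 0.0310), where 17.7% of all genes were called. Without CC011 female HF/HS 1 this was -0.40 with an adjusted p of 0.0617, and without all 3 libraries that stood apart it was -0.37 (0.0791); over 39 alternatives the adjusted p ranged from 0.00804 to 0.127.

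Pck1 (chr2:173153073-173159253) encodes the cytosolic phosphoenolpyruvate carboxykinase, the enzyme that converts oxaloacetate to phosphoenolpyruvate. It measured 258 to 2683 (median 901) on the HF/HS diet and 334 to 2843 (median 1059.9) on the control diet. The 2 diets overlapped over nearly the whole range. The difference was -0.19 ± 0.11 (adjusted p = 0.180), with a 95% confidence interval from -0.40 to 0.03.

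Slc37a4 (chr9:44396927-44402968) encodes the transporter that carries glucose 6-phosphate into the endoplasmic reticulum, where glucose-6-phosphatase acts. Its level was 61.0 to 234 (median 167) on the HF/HS diet and 107 to 439 (median 194) on the control diet. The 2 ranges overlapped, and their outer ends were in libraries that stood apart. The 439 was CC060 female control 1, where the other 2 libraries of its group read 210 and 209. CC060 male control 3 read 345, beside 186 and 240. The 61.0 was CC011 female HF/HS 1, beside 154 and 157. Slc37a4 fell by 0.28 ± 0.05 (adjusted p = 1.39e-06), with a negative difference in 16 of 20 groups. The fall was 0.19 ± 0.07 in males (adjusted p = 0.0292), where 20.9% of all genes were called, and 0.37 ± 0.07 in females (adjusted p = 2.65e-05). The call in males was lost without CC060 male control 3 (adjusted p = 0.0540) and in 14 of 39 alternatives in all. Over both sexes it stayed called in all 39 alternatives, with an adjusted p of at most 0.0125.

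Of the regulators, Ppargc1a (chr5:51454249-51553921) encodes PGC-1alpha, the coactivator that fasting induces in liver. It was a low transcript, at 0.442 to 7.65 (median 2.32) on the HF/HS diet and 0.921 to 19.8 (median 3.36) on the control diet. The ranges overlapped, with the 2 highest values, 19.8 and 13.3, in control females of CC060 and CC043. Ppargc1a fell by 0.37 ± 0.07 (adjusted p = 9.06e-06), and the difference was negative in all 10 strains and in 18 of 20 strain-sex groups. It fell by 0.29 ± 0.10 in males (adjusted p = 0.0211) and by 0.46 ± 0.10 in females (adjusted p = 0.000412). The call in males was lost in 10 of 38 alternatives. Over both sexes and in females the call held in all 38 alternatives that tested it, while a filter at a mean of 5 removed the gene. On the log2(value + 1) scale the change of so low a gene is understated: the difference was -0.49 with a pseudocount of 0.1 and -0.19 with a pseudocount of 5, the extremes over all alternatives.

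Foxo1 (chr3:52268337-52350109), which encodes the transcription factor itself, showed no change with diet that passed the test. It measured 5.21 to 18.9 (median 10.6) on the HF/HS diet and 4.68 to 27.3 (median 10.4) on the control diet. The 2 sets of libraries were interleaved. The difference was 0.01 ± 0.06 (adjusted p = 0.936), with a 95% confidence interval from -0.11 to 0.13.

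Irs1 and Irs2 encode the docking proteins that pass the signal on from the insulin receptor. Irs1 (chr1:82233105-82291439) measured 2.94 to 16.7 (median 8.28) on the HF/HS diet and 2.60 to 17.4 (median 8.18) on the control diet. Its difference was -0.10 ± 0.06 (adjusted p = 0.156; 95% confidence interval -0.22 to 0.01). Irs2 (chr8:10986964-11008430) measured 0.346 to 16.5 (median 6.49) on the HF/HS diet and 1.04 to 26.5 (median 7.72) on the control diet. Libraries of both diets covered most of each range. Irs2 fell by 0.29 ± 0.10 (adjusted p = 0.0137), with a negative difference in 14 of 20 groups. The call was lost in 5 of 39 alternatives, among them without strain CC003 or CC042. Whether Irs1 and Irs2 differ in their response was not tested.

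Igfbp1 (chr11:7197787-7202546) encodes a secreted binding protein for insulin-like growth factors that the liver releases when insulin is low. It measured 0.972 to 583 (median 61.3) on the HF/HS diet and 3.19 to 3998 (median 72.3) on the control diet. The next highest control library read 722, and below it the libraries of both diets were interleaved. Igfbp1 fell by 0.55 ± 0.22 (adjusted p = 0.0435), and by 0.92 ± 0.31 in females (adjusted p = 0.0289), with negative differences in 8 of 10 female groups and in 4 of 10 male groups. Without the library of 3998, CC060 female control 1, the differences were -0.45 (adjusted p = 0.0669) over both sexes and -0.73 (adjusted p = 0.0598) in females. The adjusted p over both sexes ranged from 0.00270 to 0.238 over 39 alternatives, and 19 of them lost the call.

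Across the members, 5 genes passed in females (Pcx, Slc37a4, Ppargc1a, G6pc and Igfbp1) and 3 in males (Pcx, Slc37a4 and Ppargc1a), but none passed the test of the difference between the sexes in the diet effect. That test called 0.877% of all genes. At an unadjusted p under 0.05 it held 1 member, G6pc, whose diet effect was 0.51 ± 0.26 higher in males than in females on the log2 scale (unadjusted p = 0.0497, adjusted p = 0.432). At that unadjusted threshold 11.5% of all genes passed. The difference was 0.34, its lowest over 39 alternatives, without strain CC011.

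Several members also differed between males and females. On the control diet 5 genes passed, all lower in males, where 43.5% of all genes passed and 18.8% were lower in males. Pck1 measured 334 to 2338 (median 803) in males and 428 to 2843 (median 1444) in females on the control diet. Males were on the lower side in all 10 strains, although single libraries overlapped. Its difference, male minus female, was -0.69 ± 0.15 (adjusted p = 0.000130). Igfbp1 measured 3.19 to 321 (median 59.8) in males and 10.5 to 3998 (median 119) in females on the control diet. Its difference was -1.07 ± 0.31 (adjusted p = 0.00316), with males lower in 8 of 10 strains. Irs2 was lower in males by 0.54 (difference -0.54 ± 0.14, adjusted p = 0.000674), Ppargc1a by 0.49 (-0.49 ± 0.10, adjusted p = 2.52e-05) and Foxo1 by 0.28 (-0.28 ± 0.08, adjusted p = 0.00420). Of these 5, Igfbp1 alone lost the call in any alternative, with strains as replicates (adjusted p = 0.0945, the highest over 39 alternatives).

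On the HF/HS diet 5 genes passed between the sexes, where 45.4% of all genes passed, with 2 of them higher in males (25.1% of all genes) and 3 lower (20.3%). G6pc measured 159 to 945 (median 491) in males and 19.2 to 875 (median 330.2) in females on the HF/HS diet. Both sexes spread over several-fold ranges that overlapped. Its difference was 0.51 ± 0.18 (adjusted p = 0.0175), with males higher in 6 of 10 strains and the largest difference, 2.19, in CC011, the strain of the female library with a G6pc of 19.2. Slc37a4 measured 95 to 234 (median 184) in males and 61.0 to 222 (median 147) in females on the HF/HS diet. It was higher in males by 0.31 ± 0.07 (adjusted p = 7.81e-05), in 8 of 10 strains. Pck1 (-0.38 ± 0.15, adjusted p = 0.0348), Ppargc1a (-0.32 ± 0.10, adjusted p = 0.00516) and Irs2 (-0.48 ± 0.14, adjusted p = 0.00245) were lower in males. The call of G6pc was lost in 6 of 39 alternatives, among them without strain CC011, that of Pck1 in 10 of 39, and those of Ppargc1a and Irs2 in 2 each, of 38 and 39. Ppargc1a lost it with a pseudocount of 5 and without the female HF/HS libraries numbered 3. With strains as replicates, Ppargc1a alone of these 5 passed (adjusted p = 0.0433). Macrophage markers moved in the same direction as the genes that were lower in males: 6 of 6 were lower in males on the HF/HS diet, with a summed level of 58.3 to 465 (median 249) in males and 153 to 901 (median 357) in females, and 5 of 6 on the control diet, with 115 to 482 (median 226) in males and 127 to 785 (median 269) in females. All 5 endothelial markers were also lower in males on both diets, with a summed level of 109.998 to 184 (median 159.5) in males and 122 to 276 (median 182) in females on the HF/HS diet, and 113 to 201 (median 150.02) in males and 105 to 226 (median 183) in females on the control diet. The 1 lymphocyte marker tested was lower in males too, with a difference of -0.42 on the HF/HS diet and -0.36 on the control diet. The hepatocyte and bile duct lists did not follow this direction, and the stellate cell list was mixed. Of the 7 hepatocyte markers, 3 were higher in males and 0 lower on the control diet, and 1 was higher and 1 lower on the HF/HS diet. The 2 bile duct markers tested were higher in males on both diets. Of 6 stellate cell markers, 2 were lower in males on the control diet and 1 was higher on the HF/HS diet. The part of any of these cell types in the sex differences was not tested.

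**Figure D3:**
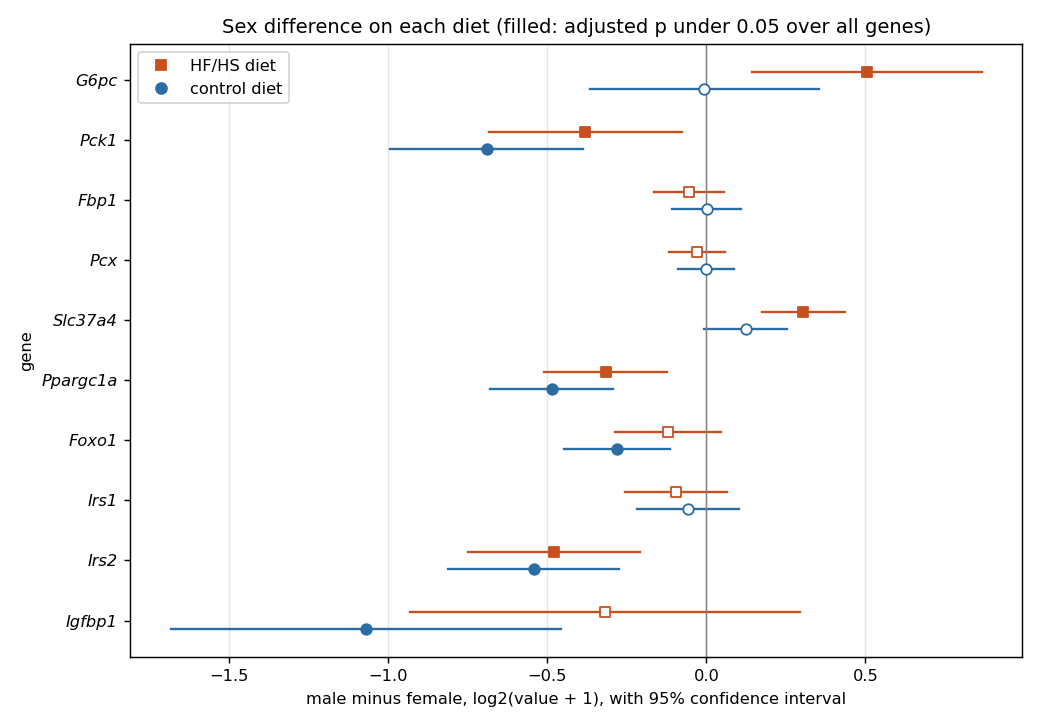
Male minus female on the log2(value + 1) scale for each gene on the HF/HS diet (orange squares) and on the control diet (blue circles), with the 95% confidence interval; filled symbols passed an adjusted p of 0.05. G6pc and Slc37a4 lie to the right of 0 on the HF/HS diet, at 0.51 and 0.31, and Pck1, Ppargc1a and Irs2 lie to the left on both diets.

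With all libraries used, Pcx alone of the 10 genes had a diet effect that differed between strains. The F test was on the 10 strains' effects (adjusted p for Pcx = 0.00177, 5.54% of all genes passed). Pcx ranked 110 among the 12203 genes. Its difference ran from -0.20 in CC060 and -0.08 in CC040 to 0.37 in CC032 and 0.58 in CC042. In CC042 males Pcx measured 276, 301 and 250.04 on the HF/HS diet and 199.9, 191 and 192 on the control diet. In CC042 females it measured 260.3, 286 and 319.5 on the HF/HS diet and 168, 191 and 188 on the control diet. Every HF/HS library of CC042 was above every control library of its sex. In CC060 males it measured 185, 179.6 and 199.6 on the HF/HS diet and 197, 270.5 and 232 on the control diet, and in CC060 females 192, 241 and 246 on the HF/HS diet and 292, 181 and 262 on the control diet. There the 2 diets overlapped. CC040, the strain with the highest control level, averaged 293 ± 33.2 on the HF/HS diet and 303 ± 32.0 on the control diet (SD, n = 5 each). Without strain CC042 the adjusted p of the F test was 0.0547, the highest over 38 alternatives, and without the other strains in turn Pcx kept the call. Other members passed this F test in some alternatives, Fbp1 in 5 of 38 and Irs2 in 2 of 38. Without CC060 female control 1, Fbp1 (adjusted p = 0.0231, against 0.243 with all libraries used) and Irs2 (0.0375, against 0.124) passed. Without all 3 libraries that stood apart, Fbp1 passed (0.00618).

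Tested strain by strain, 5 of the 100 combinations of gene and strain were called, where 4.56% of all such combinations over all genes were. Pcx rose in CC042 (0.58, adjusted p = 1.83e-05, 4.53% of all genes called there), in CC032 (0.37, adjusted p = 0.0123, 5.57%) and in CC041 (0.32, adjusted p = 0.0382, 4.44%). The call held in all 37 alternatives in CC042 and was lost in 12 of 37 in CC041. Slc37a4 fell by 0.67 in CC060 (adjusted p = 0.000762, 13.4%), and without the 3 libraries that stood apart, 2 of them CC060 controls, it fell by 0.37 (adjusted p = 0.0389). Irs2 fell by 1.15 in CC003 (adjusted p = 0.00653, 9.8%), the strain with the most rows at 0. Read as depth alone, the step between its lowest values also gave the lowest relative depth. In CC003 males Irs2 measured 3.76, 1.74 and 0.346 on the HF/HS diet and 5.13, 6.13 and 6.26 on the control diet, and in CC003 females it measured 5.05, 8.86 and 7.48 on the HF/HS diet and 12.0, 10.1 and 22.6 on the control diet. In both sexes the HF/HS libraries were all below the control libraries. The call was lost in 2 of 36 alternatives, namely library weights and the omission of the male HF/HS libraries numbered 3, and the adjusted p ranged from 0.00142 to 0.116 over the 36.

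In the 20 strain-sex groups, 5 of 200 combinations were called, where 3.02% of all such combinations over all genes were. Pcx rose in CC042 males (4.35% of all genes called) and in CC042 females (1.29%), and Irs2 fell in CC003 males (6.25%). The call was lost in 6 of 37 alternatives for Pcx in CC042 males and in 5 of 36 for Irs2 in CC003 males. Slc37a4 fell in CC060 females (2.44%) and Fbp1 fell in CC060 males (22.0%). The call of Slc37a4 was lost without CC060 female control 1 (-0.46, adjusted p = 0.397) and that of Fbp1 without CC060 male control 3 (-0.47, adjusted p = 0.177). The HF/HS libraries lay wholly below the control libraries in 37 of the 200 combinations, where 10.6% of the combinations over all genes did so, and wholly above in 12, where 11.1% did. Ppargc1a had 8 such groups below and 1 above, Fbp1 7 below and 2 above, Slc37a4 6 below and none above, and Pcx none below and 7 above. Igfbp1, Pck1 and Irs1 had 2 groups below each and none above.

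**Figure D4:**
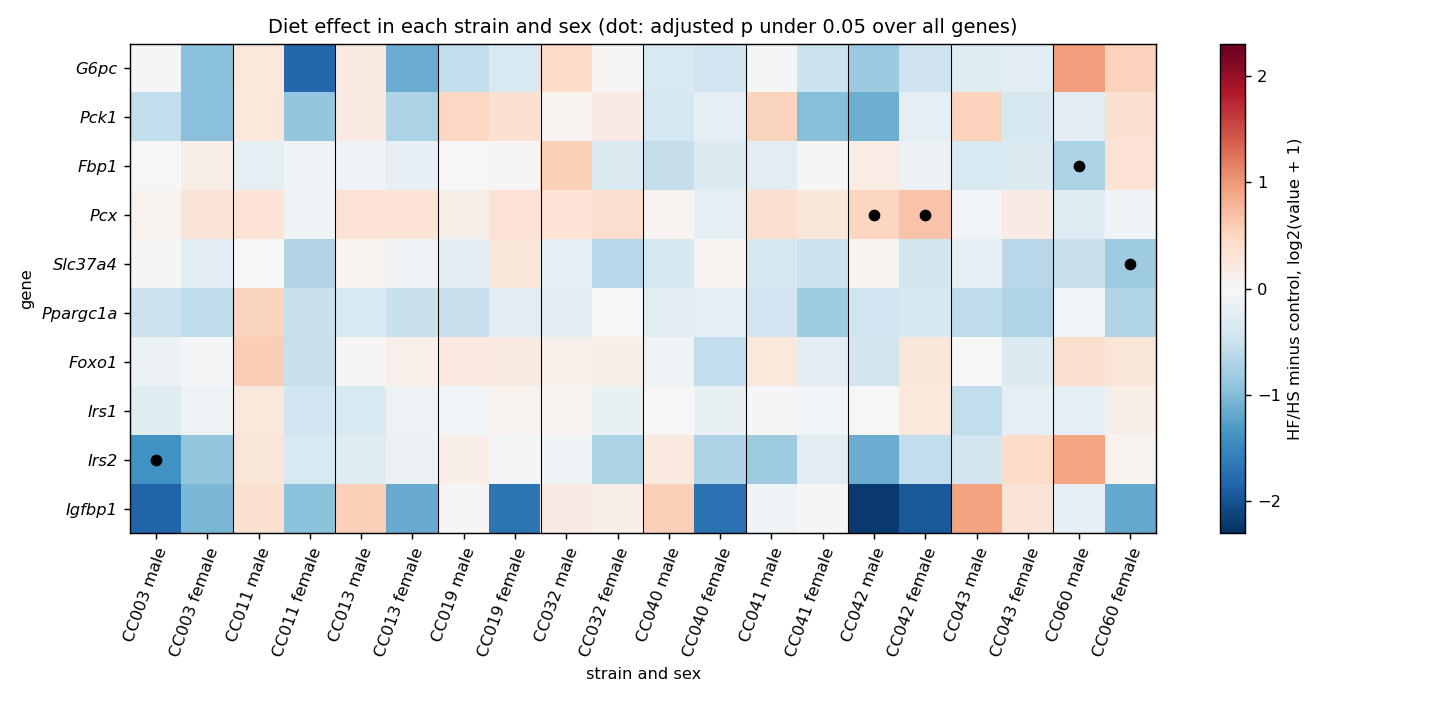
HF/HS minus control on the log2(value + 1) scale for each gene (rows) in each strain and sex (columns), red for higher and blue for lower on the HF/HS diet; a dot marks an adjusted p under 0.05 over all genes. The row of Pcx is mostly red, in 15 of 20 groups, the row of Ppargc1a is blue in 18 of 20, and the deepest blue is Igfbp1 in CC042 males at -2.20.

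Levels on the control diet differed between strains for 9 of the 10 genes in an F test over the 8 strains other than CC003 and CC060, a test that 86.5% of all genes passed. Over all 10 strains the same 9 genes passed, as did 96.7% of all genes. G6pc was the exception (adjusted p = 0.901), and its 8 strain means lay between 410.4 ± 80.6 in CC042 and 587 ± 176 in CC040 (SD, n = 6 and 5). In the test over the 8 strains, Pck1 lost the call in 2 of 38 alternatives, without strain CC032 or CC040 (highest adjusted p 0.200). Igfbp1 lost it in 1 of 38, without strain CC041 (adjusted p = 0.0747). The other called members kept it in every alternative that tested them. Pck1 was highest in CC040, at 2076 ± 297 (SD, n = 5), and lowest in CC032, at 718 ± 206 (SD, n = 6), with no overlap between their libraries. Foxo1 followed the same order at its ends, with 19.1 ± 4.36 in CC040 (SD, n = 5) and 5.79 ± 1.02 in CC032 (SD, n = 6). Irs2 was also lowest in CC032, at 3.99 ± 1.34, and highest in CC042, at 14.5 ± 3.17 (SD, n = 6 each). Irs1 was highest in CC019, at 13.99 ± 2.46, and among the 8 strains lowest in CC032, at 6.67 ± 0.635 (SD, n = 6 each). In the order of all 10 strains, CC003 and CC060 included, most neighbours differed by less than the larger of their SDs. On the control diet 1 gap exceeded it for Fbp1, Slc37a4 and Foxo1 each, and none for the other members. The gap of Fbp1, 327, was that from CC043 to CC003. For Irs1, CC003 stood between CC043 (13.3 ± 1.86) and CC011 (9.52 ± 1.54), which differed by more than either SD.

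On the HF/HS diet other strains stood at the ends of the order for some genes. Ppargc1a was highest in CC011, at 4.34 ± 1.72, and lowest in CC041, at 1.27 ± 0.602 (SD, n = 6 each). Both ends were within the SD of their neighbours, with gaps of 0.07 to CC040 and 0.11 to CC032. The 2 gaps that exceeded the larger SD lay inside the order, between CC040 and CC043 and between CC019 and CC032. Irs1 stayed highest in CC019, at 14.03 ± 2.32 (SD, n = 6), beyond the SD of the next strain, CC003, at 10.1 ± 2.27 (SD, n = 6). CC032 had the lowest Foxo1 (6.37 ± 1.001) and the lowest Irs2 (2.81 ± 1.39) on the HF/HS diet as well (SD, n = 6 each). Its mean Pcx (333 ± 58.4) and Fbp1 (1254 ± 389) were the highest of the 10 strains, by less than the larger SD. For Fbp1, CC032 males averaged 1602 ± 114 and CC032 females 906 ± 36.1 (SD, n = 3 each). Igfbp1 was highest in CC043, at 239.6 ± 209 (SD, n = 6), with single libraries from 49.5 to 583.

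The members also differed in how far libraries of the same strain, sex and diet lay apart. Igfbp1 had a within-group SD of 1.18 on the log2 scale, above that of 98.3% of all genes tested. G6pc (0.70, above 96.6%), Pck1 (0.59, above 95.4%) and Irs2 (0.53, above 94.4%) were also among the most variable, against a median over all genes of 0.20. Pcx was among the steadier ones, at 0.17 (above 34.5%). In CC043 females on the HF/HS diet, Igfbp1 measured 152, 583 and 133, and on the control diet 20.2, 413 and 722. The libraries of both diets overlapped there.

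Within groups, some of the members varied together from library to library. Deviations of log2(value + 1) from the group means were correlated over all libraries used for each of the 45 pairs, with 100000 permutations within groups and Benjamini-Hochberg adjustment over the 45. The points share libraries and the rescaling, so these are correlations between libraries and not between independent animals. In this test 19 of the 45 pairs passed, 18 of them positive. Fbp1 took part in 1 of these pairs, a negative one, and Irs1 in none. The median absolute r was 0.29 over the 45 pairs and 0.14 over all pairs of genes tested. The smallest absolute r that passed, 0.33, was reached by 46.7% of the 45 pairs and by 13.2% of all pairs of genes. Ppargc1a and Foxo1 had r = 0.70 and rho = 0.57 (adjusted permutation p = 0.0001125, from the smallest p that these permutations can give, 1e-05), and r = 0.57 without the 2 libraries farthest from the median of Ppargc1a. Pck1 and Foxo1 had r = 0.64 and rho = 0.56 (adjusted permutation p = 0.0001125), and r = 0.58 without the 2 farthest. In both pairs, libraries above their group mean for Foxo1 tended to be above it for the partner.

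Igfbp1 went with Irs2, with r = 0.64 and rho = 0.50 (adjusted permutation p = 0.0001125; r = 0.62 without the 2 farthest), and among all genes tested Igfbp1 ranked 6 in likeness to Irs2. G6pc went with Pck1, with r = 0.55 and rho = 0.50 (adjusted permutation p = 0.0001125; r = 0.56 without the 2 farthest), and Pck1 ranked 7 in likeness to G6pc. Pcx went with Foxo1, with r = 0.53 and rho = 0.48 (adjusted permutation p = 0.00018; r = 0.44 without the 2 farthest). G6pc and Slc37a4, the partners in glucose release, had r = 0.51 and rho = 0.43 (adjusted permutation p = 0.0108). Without the 3 libraries that stood apart this was r = 0.31 (adjusted permutation p = 0.0534), without the 2 farthest r = 0.35 (0.0279), and without CC003 and CC060 r = 0.64 (0.00666). The only negative pair that passed was Fbp1 and Irs2, with r = -0.44 and rho = -0.27 (adjusted permutation p = 0.00914), and it was r = -0.19 (adjusted permutation p = 0.168) without the 3 libraries. Pck1 with Slc37a4 had r = 0.38 (adjusted permutation p = 0.0108), and r = 0.30 (0.0534) without the 3 libraries. Ppargc1a with Igfbp1 had r = 0.48 (adjusted permutation p = 0.0209), and r = 0.33 (0.123) without the 3 libraries. In all, 12 of the 19 pairs passed in each of the 5 versions run, which were Pearson, Spearman, without the 2 farthest libraries, without CC003 and CC060, and without the 3 libraries.

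**Figure D5:**
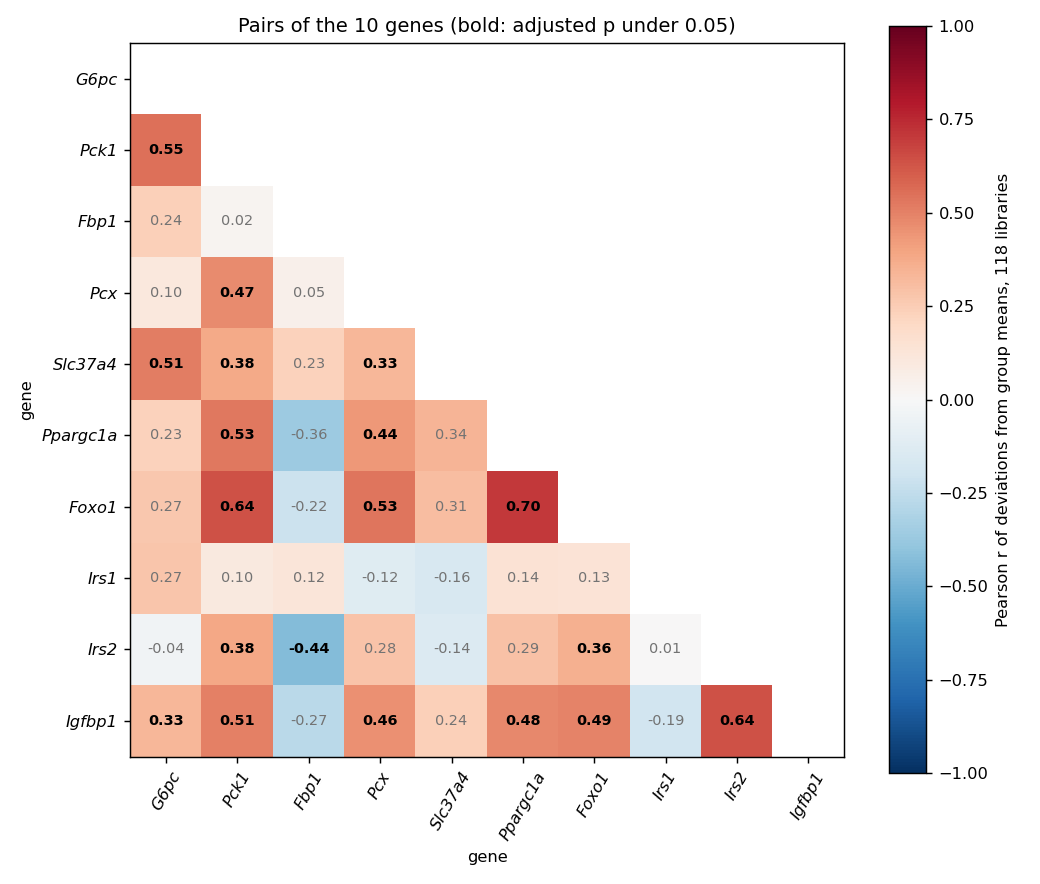
Pearson r between pairs of the 10 genes, of deviations from the group means over the libraries used; bold numbers had an adjusted permutation p under 0.05. The block of Pck1, Pcx, Ppargc1a, Foxo1 and Igfbp1 has r from 0.44 to 0.70, with Ppargc1a and Igfbp1 at 0.48 (0.33 without the 3 libraries that stood apart), and the column of Irs1 is pale.

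Over the same deviations, the genes most like each member among all genes tested were found by Pearson r over the 59 libraries of each diet together. Igfbp1 was most like Irf2bp2 (r = 0.80), Trp53inp1 (0.75) and Ip6k2 (0.75), and Irs2 was most like Jmy (0.73), Pik3ca (0.69) and Tbc1d15 (0.66). Pck1 was most like Klf15 (0.73), Klhl21 (0.73) and Ctcflos (0.70), and G6pc was most like Arl4d (0.67), Cyp8b1 (0.63) and Slc25a25 (0.61). Ppargc1a and Foxo1 shared Pptc7 among their 3, with r = 0.78 to Ppargc1a and 0.75 to Foxo1. The others of Ppargc1a were Clip1 (0.77) and Cobll1 (0.77), and those of Foxo1 were Rad54l2 (0.78) and Plin4 (0.73). Fbp1 was most like Mettl7b (0.75), Khk (0.75) and Serpinc1 (0.73), Slc37a4 like Glrx (0.76), Asl (0.72) and Tomm20 (0.71), Pcx like Wbp1l (0.66), Agpat3 (0.64) and Mtor (0.63), and Irs1 like Nfatc3 (0.66), Papd5 (0.65) and Hook3 (0.65).

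In each list of the wider pathway the count called is to be read against the 32.6% of all genes called (17.2% higher, 15.4% lower). Nothing particular to these lists is read from the counts. The lists hold genes chosen by textbook role, and a difference between lists was not tested. Of 20 other gluconeogenic and pyruvate-handling enzymes tested, 3 rose and 5 fell over both sexes, with a median difference of -0.03 beside 0.00 for all genes. Got1, the cytosolic aspartate aminotransferase, averaged 189 ± 99.5 on the HF/HS diet and 281 ± 232 on the control diet (SD, n = 59 each) and fell by 0.48 ± 0.09 (adjusted p = 1.001e-05). Pck2, the mitochondrial counterpart of Pck1, fell by 0.12 ± 0.03 (adjusted p = 0.00399), Mpc2, a subunit of the mitochondrial pyruvate carrier, fell by 0.15 ± 0.04 (adjusted p = 0.00616) and Tpi1 fell by 0.10 ± 0.03 (adjusted p = 0.00423). Of 20 genes of insulin receptor signalling, 1 rose and 4 fell. Trib3, an inhibitor of AKT, rose by 0.32 ± 0.10 (adjusted p = 0.0128), and the insulin receptor gene Insr fell by 0.09 ± 0.03 (adjusted p = 0.0277). Rps6kb1 fell by 0.07 ± 0.02 (adjusted p = 0.0153) and Phip by 0.09 ± 0.03 (adjusted p = 0.0269).

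Of 17 other FOXO targets and FOXO genes tested, 2 rose and 4 fell, with a median of -0.01. Insig2, which restrains SREBP processing, rose by 0.32 ± 0.08 (adjusted p = 0.000413), Sesn1 fell by 0.21 ± 0.06 (adjusted p = 0.00228), and the lipoprotein genes Mttp and Apoc3 fell by 0.11 ± 0.03 (adjusted p = 0.00378) and 0.15 ± 0.05 (adjusted p = 0.0197). Of 24 regulators tied to glucagon, cAMP and glucocorticoids, 2 rose and 6 fell, with a median of -0.01. Sik1, a kinase induced by cAMP, averaged 6.73 ± 3.51 on the HF/HS diet and 9.66 ± 5.64 on the control diet (SD, n = 59 each) and fell by 0.43 ± 0.09 (adjusted p = 6.46e-05). Tat, the tyrosine aminotransferase that glucocorticoids induce, fell by 0.42 ± 0.10 (adjusted p = 0.000437), Tsc22d3 by 0.34 ± 0.09 (adjusted p = 0.00218) and Creb1 by 0.09 ± 0.02 (adjusted p = 0.00320).

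Of 11 genes that insulin induces, 7 fell and 1, Srebf1, rose, with a median of -0.43. In males 7 fell and 0 rose (median -0.53), and in females 1 fell and 1 rose (median -0.32). None of the 11 passed the test of the difference between the sexes in the diet effect. Acly, which makes cytosolic acetyl-CoA, averaged 183 ± 164 on the HF/HS diet and 332 ± 212 on the control diet and fell by 0.98 ± 0.14 (adjusted p = 1.87e-08). Fasn, the fatty acid synthase, fell by 0.77 ± 0.17 (adjusted p = 0.000209), Elovl6 by 0.73 ± 0.16 (adjusted p = 0.000178) and Ppp1r3b, a glycogen-targeting phosphatase subunit, by 0.43 ± 0.07 (adjusted p = 1.44e-06). Igfbp1 and Irs2, which insulin represses, fell on the same diet over both sexes, as given above. By sex, Igfbp1 was called in females only and Irs2 in neither sex. Of 11 glycogen genes, 2 rose and 1 fell. Gyg rose by 0.19 ± 0.05 (adjusted p = 0.000547) and Phka2 by 0.08 ± 0.03 (adjusted p = 0.00815). Among 8 IGF and IGF-binding protein genes besides Igfbp1, Igfbp7 rose by 0.14 ± 0.03 (adjusted p = 0.000123), and Igfbp4 fell by 0.11 ± 0.03 (adjusted p = 0.00480) and Igf1 by 0.10 ± 0.03 (adjusted p = 0.0225).

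Gluconeogenesis is strongest in hepatocytes near the portal vein, so genes of both ends of the lobule were set beside the members. Of 10 periportal genes, 6 fell and none rose, with a median of -0.21. Cdh1 fell by 0.71 ± 0.07 (adjusted p = 1.52e-14), Gls2 by 0.45 ± 0.06 (adjusted p = 2.58e-10), Ass1 by 0.34 ± 0.07 (adjusted p = 0.000153) and Cps1, also among the hepatocyte markers, by 0.27 ± 0.05 (adjusted p = 4.34e-05). Of 10 pericentral genes, 3 rose and none fell, with a median of 0.04. Cyp2e1 rose by 0.23 ± 0.06 (adjusted p = 0.00135) and Glul by 0.14 ± 0.04 (adjusted p = 0.00712). Whether the periportal and pericentral lists differ in their response was not tested. The part of any such difference in the falls of the members was not tested either.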

How the data were processed

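The authors aligned the reads to mm10 with TopHat2 2.1.1 and Bowtie2 2.2.5.0 and quantified genes with Cufflinks 2.2.1, per the submitters' processing notes. The authors deposited 1 table of rescaled FPKM, in which the 75th percentile lies between 9.98 and 10.0 in every library. The formula, the annotation, the use of strand and the depth are not given in the sources used here, so the precision behind a value could not be computed from counts. From these values, log2(value + 1) was analysed in limma 3.58.1 (R 4.3.3) for the 12203 genes with a mean of at least 1, with 40 group means, a trended robust prior, two-sided tests and Benjamini-Hochberg adjustment over all genes tested. The threshold was an adjusted p of 0.05. SE and confidence intervals come from the same fit, and F tests compared strains. Deviations from group means were correlated with 100000 permutations within groups. With strains as replicates, each strain gave 1 difference.

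The table had 24883 rows, and 1 row that lacked a value was dropped. The members and gene lists were chosen with earlier results of these data known, and all 10 members are named. From each list, up to 4 called genes with the smallest adjusted p are named, except some that are not reported here. The likest 3 genes per member are named by Pearson r, after the kinds of symbol given above were passed over. Alternatives covered pseudocounts of 0.1 and 5, the filter, normalization, the prior, library weights, the replicate block, strains as replicates and the omission of replicates, strains or libraries. The omission of single libraries that stood apart was chosen after their values were seen. The fit was tested on simulated data. Promoter sequences are from RefSeq on GRCm38.p6, with a window found by symbol for all 10 members. The locus start in the table equals the RefSeq gene start for 7 of 10 members and the end for 5, so a RefSeq window need not abut the printed locus.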

Additional observations from a re-analysis of the deposited data

Results flagged for a closer look

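The diet effect on Pcx differed between the 10 strains, by the F test of the difference itself over the strains' effects (limma, adjusted p = 0.00177, 5.54% of all genes passed). It was 0.58 on the log2 scale in CC042 and -0.20 in CC060, and without CC042 the adjusted p was 0.0547.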

How the results depend on the processing

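No member's called value changed sign in any alternative. In the comparisons over strains, 6 of the 10 genes were called for diet over both sexes, 5 in females, 3 in males, 5 between the sexes on the HF/HS diet and 1 for a diet effect that differed between strains, with 5 calls each in single strains and in single strain-sex groups. With strains as replicates the first 4 counts were 2, 1, 0 and 1, and the F tests and single-strain tests could not be run. Without CC003 and CC060, 3 genes were called between the sexes on the HF/HS diet, 12 calls were made in single strains and 9 in strain-sex groups. With library weights, 6 genes were called in males and 8 for the diet effect that differed between strains, with 25 calls in single strains and 48 in strain-sex groups, and quantile normalization gave 8 in single strains. Leaving out 1 replicate number of a sex and diet gave 3 to 6 genes in females, 1 to 4 in males, 3 to 5 between the sexes on the HF/HS diet, 1 to 2 for the differing diet effect, 3 to 12 calls in single strains and 3 to 10 in strain-sex groups. Without a strain, females had 3 genes (without CC003, CC013 or CC042) and males 1 (without CC019 or CC041). The differing diet effect had 0 genes without CC042 and 2 without CC060, single strains had 8 calls without CC011, 3 without CC042 and 13 without CC060, and strain-sex groups had 3 without CC042 and 9 without CC060. Without CC060 female control 1 the differing effect had 3 genes, single strains 15 calls and strain-sex groups 8. Without CC060 male control 3 single strains had 9 calls, and without CC011 female HF/HS 1 both had 8. Without all 3, males had 5 genes, the differing effect 2, single strains 16 calls and strain-sex groups 10. The cause of these changes was not tested, beyond the smaller number of samples in each omission.

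Over all genes, the main counts were 3975 for diet over both sexes, 2157 in females, 2555 in males, 107 for the sex difference in diet effect, 5543 and 5312 between the sexes on the HF/HS and the control diet and 676 for the differing diet effect. With strains as replicates the first 6 were 2072, 556, 685, 0, 3268 and 3087. Library weights gave 6012, 3936, 4787 and 847 for the first 4 and 7204 for the differing diet effect, which had 1093 genes with no filter, 450 with a filter at 5 and 1605 without the 3 libraries. A replicate block over all groups gave 6, 5 and 3 members for diet over both sexes, in females and in males, and a block within strain and sex gave 6, 5 and 4. Same-numbered libraries did not deviate together (mean r 0.0027 over 58 pairs, against -0.00093 over 117 differently numbered pairs), so the number is not evidence of pairing. Depth is unknown, and low values such as those of Ppargc1a and Irs2 in CC003 are the least certain.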
